A study of Mus musculus with 12 samples.

Results

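The immunoglobulin genes of mouse intestine were described across 12 RNA libraries. Members were all genes whose symbol named a variable segment of the heavy (Ighv), kappa (Igkv) or lambda (Iglv) chain, a heavy or light chain constant region (Ighg and Iglc genes, Igha, Ighm, Ighe, Ighd, Igkc) or the joining chain (Jchain), with a mean of at least 0.5 FPKM (fragments per kilobase of transcript and 1000000 fragments) over the 12 libraries. Of 22063 genes listed, 230 matched by symbol and 176 reached the limit: 81 Ighv, 80 Igkv and 3 Iglv segments, 7 heavy chain constant regions, 4 light chain constant regions and Jchain. The 54 matching genes under the limit included Ighe and Iglc4, and 18 of them were listed at 0 in every library. Just inside the limit were Ighv1-61 (0.517 FPKM), Igkv12-89 (0.540 FPKM) and Igkv1-132 (0.570 FPKM), and just outside it were Igkv8-34 (0.435 FPKM), Igkv3-9 (0.426 FPKM) and Igkv6-29 (0.419 FPKM). Of the members, 133 were above 0 in all 12 libraries. The 31 diversity and joining segments in the table were listed at 0 throughout.

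Female C57BL6/J mice, bought at 7 to 8 weeks of age, received 10 Gy to the whole body and the intestine was taken 48 h later. The 4 groups of 3 libraries each were HH_TBI (irradiated in a mode whose mean and instantaneous dose rates were both ultra-high), HH_Ctrl (untreated animals of the HH experiment), LL_TBI (irradiated in a mode whose dose rates were both low) and LL_Ctrl (untreated animals of the LL experiment). TBI means total body irradiation, for which the labels write WBI. The modes were given on different accelerators with separate controls, so the mode cannot be told apart from the machine or from other differences between the experiments. Nothing in the sources says that each library came from its own mouse, so p-values measure the spread between libraries.

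Plasma cells are the antibody-secreting end stage of the B cell lineage. In the intestinal lamina propria most of them make dimeric IgA, which holds an alpha heavy chain (Igha), a light chain and the joining chain, and which the polymeric immunoglobulin receptor (Pigr) carries across the epithelium into the lumen. Each plasma cell clone expresses 1 rearranged heavy chain variable segment and 1 light chain variable segment, so the variable segments in bulk RNA reflect the clones sampled, whereas the constant regions reflect isotype and total output. In bulk tissue, fewer plasma cells and less immunoglobulin RNA per plasma cell cannot be told apart. IgM and IgD (Ighm, Ighd) are also the receptors of B cells that have not switched class, and are found in Peyer's patches and other lymphoid follicles of the gut wall.

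Variable segments were close copies of each other, which bears on every value of a single segment. The transcript models of 163 of the 164 variable members could be set against another matching segment of the same locus over at least 80% of their bases, and the median identity to the closest one was 95.1% (95.4% for Ighv and 94.5% for Igkv, lowest 72.8%). For 82 members the closest segment was at least 95% identical and for 2, Ighv1-62-2 and Ighv1-72, at least 99%. The last 150 bases of the germline transcript models (GENCODE M21, GRCm38) are shown for the segments that the results turn on, each above the segment it most resembles, and capitals mark the letters that differ between them. The first pair lies on chromosome 6 and holds the most abundant kappa segments, Igkv1-110 and Igkv1-117, which differed at 4 of these 150 letters:
Igkv1-110: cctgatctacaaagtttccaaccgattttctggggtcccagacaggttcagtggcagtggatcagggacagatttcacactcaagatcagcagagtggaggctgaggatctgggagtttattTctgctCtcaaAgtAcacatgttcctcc
Igkv1-117: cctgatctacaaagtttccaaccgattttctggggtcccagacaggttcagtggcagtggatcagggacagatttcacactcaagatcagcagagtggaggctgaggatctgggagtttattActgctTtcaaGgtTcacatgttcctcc
Igkv1-122, also on chromosome 6, was called lower in LL_TBI and differed from Igkv1-110 at 13 letters, here in capitals:
Igkv1-122: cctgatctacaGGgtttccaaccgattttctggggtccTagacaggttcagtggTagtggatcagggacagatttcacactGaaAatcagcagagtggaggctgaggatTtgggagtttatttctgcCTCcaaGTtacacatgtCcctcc
The heavy chain segment with the highest mean level was Ighv1-26 (chromosome 12), which differed from Ighv1-18 at 2 letters:
Ighv1-26: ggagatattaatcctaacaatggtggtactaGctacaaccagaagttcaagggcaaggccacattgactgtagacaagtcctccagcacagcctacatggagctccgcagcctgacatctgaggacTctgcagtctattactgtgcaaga
Ighv1-18: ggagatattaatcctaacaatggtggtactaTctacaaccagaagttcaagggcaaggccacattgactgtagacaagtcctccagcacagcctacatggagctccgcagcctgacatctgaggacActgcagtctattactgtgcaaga
Ighv5-9-1, with the widest gap between the control groups, differed from Ighv5-6 at 11 letters:
Ighv5-9-1: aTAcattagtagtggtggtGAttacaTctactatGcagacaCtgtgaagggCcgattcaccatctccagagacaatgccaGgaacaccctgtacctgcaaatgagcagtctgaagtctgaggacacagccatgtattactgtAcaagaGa
Ighv5-6: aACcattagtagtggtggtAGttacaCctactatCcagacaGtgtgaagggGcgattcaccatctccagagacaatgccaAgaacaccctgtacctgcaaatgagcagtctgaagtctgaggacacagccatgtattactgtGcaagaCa
Ighv2-4, the member most confined to 1 library, differed from Ighv2-2 at 5 letters:
Ighv2-4: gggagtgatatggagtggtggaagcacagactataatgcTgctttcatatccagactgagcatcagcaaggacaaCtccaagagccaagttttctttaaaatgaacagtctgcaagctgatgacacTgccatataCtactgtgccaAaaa
Ighv2-2: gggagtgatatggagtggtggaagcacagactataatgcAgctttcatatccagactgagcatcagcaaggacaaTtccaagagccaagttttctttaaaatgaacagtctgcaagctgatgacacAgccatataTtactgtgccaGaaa
Close copies could still show separate patterns in these data. Ighv5-9-1 had 8.47, 25.4 and 5.55 FPKM in HH_TBI libraries 1, 2 and 3, 0.773, 1.18 and 0.644 in HH_Ctrl, 48.8, 38.0 and 68.5 in LL_TBI and 37.9, 80.9 and 43.6 in LL_Ctrl. Ighv5-6 was highest in LL_Ctrl 2 (22.7 FPKM) and at most 3.30 FPKM in every other library. How the quantification divided reads between near-identical segments was not tested, so values of single segments are uncertain in that respect.

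The files gave FPKM without read counts, but low values of genes with 1 transcript model lay on whole steps, from which the number of fragments behind the normalisation was estimated, in units of 1000000, at 18.2 for LL_TBI 3 and between 22.6 and 26.6 for the other libraries. Of the values worth up to 10 fragments, 84.4% to 89.3% per library lay within 0.1 of a whole step. In a segment of median length 1 fragment was worth between 0.103 and 0.151 FPKM. Intestinal epithelial genes were high throughout, as the tissue label says, and some libraries stood apart. A list of pancreatic acinar genes took 30.3% of all FPKM in LL_TBI 2, 8.07% in LL_TBI 1 and at most 0.140% elsewhere. Fabp6, which marks ileum, had 585.9 FPKM in HH_TBI 3 and 82.2 FPKM in LL_TBI 3, against at most 8.75 FPKM elsewhere. A list of 6 ileum genes summed to 1172 FPKM in HH_TBI 3 and 477.3 FPKM in LL_TBI 3. HH_Ctrl 3 was close to the latter with 475.0 FPKM, and the other libraries had 103.0 to 276.1 FPKM. A list of 18 B cell genes summed to 117.2 and 119.3 FPKM in HH_Ctrl 1 and 3, against 18.6 FPKM in HH_Ctrl 2 and 25.5 to 43.7 FPKM in the other 9 libraries.

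IgA was the main isotype in every library. Igha (chromosome 12, as all Igh genes) had 1958, 1842 and 2524 FPKM in HH_TBI, 1225, 908.2 and 1306 FPKM in HH_Ctrl, 2259, 1626 and 2025 FPKM in LL_TBI and 2504, 2637 and 3167 FPKM in LL_Ctrl. All HH_Ctrl libraries were below all other libraries. Igha made up 94.0%, 93.4% and 97.5% of the summed heavy chain constant region FPKM in HH_TBI, 89.9%, 99.3% and 87.8% in HH_Ctrl, 98.8%, 98.9% and 99.5% in LL_TBI and 98.8%, 98.1% and 99.3% in LL_Ctrl. Thus the IgA share was at least 98.1% in all 6 LL libraries and in HH_Ctrl 2, and at most 97.5% in the other 5 HH libraries.

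The remaining isotypes made up the difference. Ighm had 50.6, 47.8 and 28.9 FPKM in HH_TBI, 68.4, 2.997 and 90.04 FPKM in HH_Ctrl, 14.6, 11.03 and 5.23 FPKM in LL_TBI and 12.1, 22.7 and 13.2 FPKM in LL_Ctrl. The 4 IgG genes together had 73.4, 82.0 and 35.0 FPKM in HH_TBI, 54.1, 3.20 and 80.1 FPKM in HH_Ctrl, 13.6, 7.29 and 5.73 FPKM in LL_TBI and 18.0, 26.6 and 10.5 FPKM in LL_Ctrl. Within HH_Ctrl both were high in libraries 1 and 3 and low in library 2, and Ighg2b was the largest IgG component in HH_TBI, with 58.5, 58.2 and 25.1 FPKM. Ighg3 followed with 10.2, 12.003 and 5.25 FPKM in HH_TBI, whereas Ighg1 ranged between 0.858 and 10.3 FPKM and Ighg2c between 0.135 and 2.10 FPKM over all libraries.

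Ighd, the surface isotype of mature B cells, followed a different pattern. It had 1.22, 0.607 and 0.258 FPKM in HH_TBI, 15.3, 0.108 and 12.1 FPKM in HH_Ctrl, 0.299, 0.628 and 0 FPKM in LL_TBI and 0.422, 1.52 and 0.237 FPKM in LL_Ctrl. Only HH_Ctrl 1 and 3 had high Ighd. In the same libraries Cd79a, a signalling chain of the B cell receptor, had 27.4 and 29.5 FPKM, against 2.45 FPKM in HH_Ctrl 2 and 2.71 to 5.89 FPKM elsewhere. In HH_TBI, Ighm and the IgG genes were high beside Cd79a of 5.54, 5.50 and 5.33 FPKM. The part of follicular B cells in the Ighm and IgG values was not tested.

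**Figure D1:**
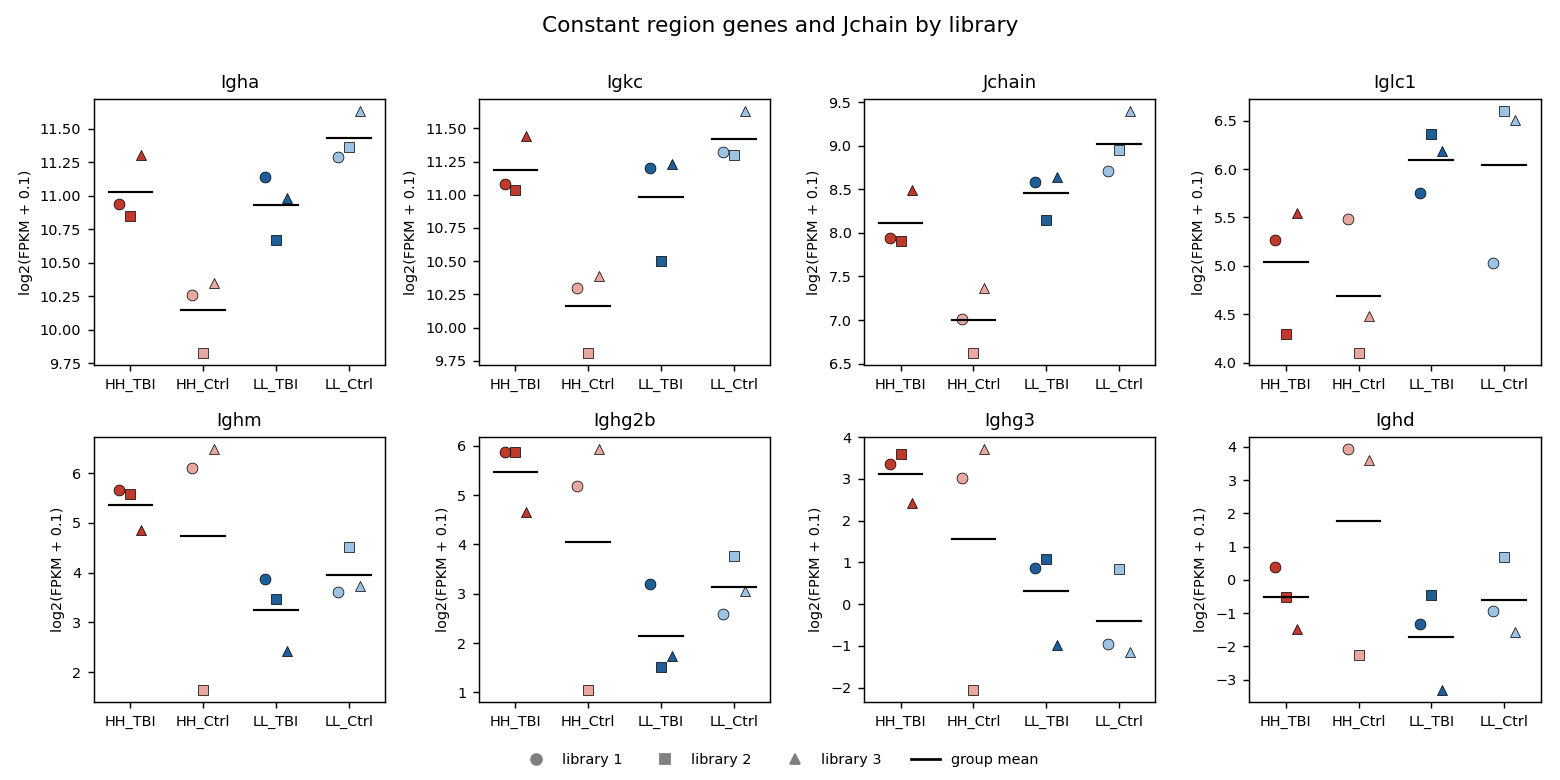
Levels of 8 constant region and joining chain genes as log2(FPKM + 0.1), by group, with 1 symbol per library and a line at the group mean. Igha, Igkc and Jchain were lowest in the 3 HH_Ctrl libraries, and Ighd was high only in HH_Ctrl libraries 1 and 3.

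Light chains were mostly kappa. Igkc (chromosome 6) had 2171, 2096 and 2781 FPKM in HH_TBI, 1257, 896.1 and 1340 FPKM in HH_Ctrl, 2353, 1452 and 2408 FPKM in LL_TBI and 2566, 2523 and 3166 FPKM in LL_Ctrl. As with Igha, the HH_Ctrl libraries were below all others. The 3 lambda constant regions (chromosome 16) took 1.94% to 2.48% of light chain constant FPKM in HH_TBI, 3.39% to 5.31% in HH_Ctrl, 3.34% to 6.18% in LL_TBI and 2.21% to 4.48% in LL_Ctrl. Iglc1 was the highest of them in 11 of 12 libraries, and Iglv1 was the highest lambda segment in all 12, with 28.8 to 86.3 FPKM in HH_TBI, 18.3 to 43.7 FPKM in HH_Ctrl, 106.1 to 132.9 FPKM in LL_TBI and 76.2 to 194.0 FPKM in LL_Ctrl.

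Jchain (chromosome 5), which links IgA and IgM into polymers, had 246.0, 239.3 and 359.0 FPKM in HH_TBI, 128.8, 98.3 and 165.4 FPKM in HH_Ctrl, 383.9, 284.7 and 399.5 FPKM in LL_TBI and 419.8, 495.9 and 673.6 FPKM in LL_Ctrl. The members together took 1.22%, 1.07% and 1.47% of all FPKM in HH_TBI, 0.644%, 0.412% and 0.673% in HH_Ctrl, 1.29%, 0.820% and 1.14% in LL_TBI and 1.44%, 1.54% and 1.83% in LL_Ctrl. These shares did not overlap between HH_TBI and HH_Ctrl, nor between LL_TBI and LL_Ctrl, but the HH_TBI libraries were the higher of the first pair and the LL_TBI libraries the lower of the second.

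The first comparison asked how HH irradiation changed the members relative to its own controls. Fold changes were fitted with limma on log2(FPKM + 0.1) over the 12921 genes that averaged 0.5 FPKM or more, and calls required an adjusted p (Benjamini-Hochberg) under 0.05 together with a log2 fold change beyond 1 in either direction. In HH_TBI against HH_Ctrl, 43 members were called higher and 2 lower, beside 10.3% of all genes called higher and 2.38% called lower. With no filter on low values, 8 members were called higher and 0 lower, beside 5.05% and 1.02% of 22063 genes. The median log2 fold change was 1.24 over the members and 0.10 over all genes tested. The groups did not overlap, with HH_TBI above, for 51 members (30.3% of all genes) and with HH_TBI below for 2 members (21.4% of all genes). Because the limit on the mean was met by 163 members in HH_TBI and by 145 in HH_Ctrl, some members passed through 1 group only, and of the 141 members at 0.5 FPKM or more in both groups 37 were called higher and 0 lower by limma.

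Among the constant regions, Jchain rose in HH_TBI by 1.11 on the log2 scale (SE 0.23, limma adjusted p = 0.010) and Igkc by 1.02 (SE 0.23, limma adjusted p = 0.0137). Igha had a log2 fold change of 0.88 (SE 0.22, limma adjusted p = 0.0204), which passed the limit on p but not the limit on fold change. The 9 other constant regions were not called, and their log2 fold changes ran from -2.29 for Ighd to 1.57 for Ighg3. For Ighm (0.63, SE 1.17), Ighg2b (1.41, SE 1.17) and Ighd (SE 1.55) the standard error was large, and HH_Ctrl 2 lay far below HH_Ctrl 1 and 3.

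Of the variable segments, 22 Ighv and 19 Igkv were called higher in HH_TBI and 1 of each was called lower. Ighv1-77 had the largest log2 fold change (4.38, SE 1.26, limma adjusted p = 0.032), with 20.1, 1.97 and 25.5 FPKM in HH_TBI, against 0, 1.76 and 0.546 FPKM in HH_Ctrl. Igkv5-45 followed (4.15, SE 0.66, limma adjusted p = 0.00407), with 5.65, 6.43 and 4.10 FPKM in HH_TBI, against 0.314, 0 and 0.581 FPKM in HH_Ctrl. Both groups were clearly apart for Igkv5-45, whereas HH_TBI 2 and HH_Ctrl 2 nearly met for Ighv1-77. Ighv5-9-1 rose by 3.51 (SE 0.53, limma adjusted p = 0.00352), Igkv1-88 by 3.33 (SE 0.88, limma adjusted p = 0.0242) and Ighv4-1 by 3.27 (SE 0.96, limma adjusted p = 0.0339). The most even change was that of Ighv3-6, with 21.8, 22.3 and 26.1 FPKM in HH_TBI, against 8.32, 9.98 and 11.8 FPKM in HH_Ctrl (log2 fold change 1.23, SE 0.15, limma adjusted p = 0.00193). The segments called lower were both of low abundance. Ighv1-84 had 0.738, 0 and 0 FPKM in HH_TBI, against 1.25, 0.749 and 2.15 FPKM in HH_Ctrl, and Igkv9-123 had 0, 0 and 0.206 FPKM in HH_TBI, against 0.529, 0.199 and 1.29 FPKM in HH_Ctrl. The highest of the 12 libraries held 17.2 fragments of Ighv1-84 and 22.01 of Igkv9-123. With a pseudocount of 1 neither was called.

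Most of the abundant segments rose as well. Ighv1-26 had 62.8, 37.2 and 54.4 FPKM in HH_TBI, against 6.93, 11.9 and 24.8 FPKM in HH_Ctrl (log2 fold change 1.98, SE 0.43, limma adjusted p = 0.0122). Igkv1-110 had 88.4, 74.6 and 140.4 FPKM in HH_TBI, against 13.5, 14.8 and 46.8 FPKM in HH_Ctrl (2.20, SE 0.48, limma adjusted p = 0.0117), and Igkv1-117 had 94.9, 90.3 and 50.5 FPKM in HH_TBI, against 34.4, 22.2 and 37.6 FPKM in HH_Ctrl (1.302, SE 0.29, limma adjusted p = 0.0125). Ighv1-55, the segment with the next highest mean after Ighv1-26, was not called (0.49, limma adjusted p = 0.749), with 37.3, 3.14 and 55.5 FPKM in HH_TBI, against 35.7, 6.79 and 9.72 FPKM in HH_Ctrl. The choice of controls mattered. Against all 6 control libraries of both modes, only 1 member was called higher in HH_TBI, beside 4.14% of all genes. In that fit the log2 fold changes of Ighv3-6 (-0.045) and Igkv1-117 (-0.054) were negative. Without HH_Ctrl 2, the library with the lowest immunoglobulin level, 25 members were called higher, beside 8.35% of all genes. A fit without HH_Ctrl 1 and 3, those with B cell transcripts, holds 1 control library. That library is assumed to vary like the HH_TBI libraries, so calls from this fit are not counted.

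The second comparison asked the same of LL irradiation. In LL_TBI against LL_Ctrl, 0 members were called higher and 2 lower by limma, beside 0.17% of all genes called higher and 0.0774% called lower. At an unadjusted p under 0.05, 4 members were higher and 31 lower, beside 924 and 1428 of all 12921 genes. The median log2 fold change was -0.56 over the members and -0.12 over all genes tested, and 133 of 176 members had a negative value. The groups did not overlap, with LL_TBI above, for 1 member (9.91% of all genes) and with LL_TBI below for 22 members (18.9% of all genes).

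The called segments were Igkv1-122 and Igkv9-123, both low in abundance and both under 0.5 FPKM in every LL_TBI library. Of the 160 members at 0.5 FPKM or more in both groups, 0 were called higher and 0 lower by limma. Igkv1-122 had 0, 0.110 and 0 FPKM in LL_TBI, against 2.63, 1.53 and 3.46 FPKM in LL_Ctrl (log2 fold change -4.29, SE 0.48, limma adjusted p = 0.0212). Igkv9-123 had 0, 0 and 0.146 FPKM in LL_TBI, against 2.35, 2.44 and 1.47 FPKM in LL_Ctrl (-3.99, SE 0.48, limma adjusted p = 0.0276). Neither stayed called with median-ratio scaling. The count of members called lower was 0 when any of LL_TBI 2 or the LL_Ctrl libraries was left out. It was 11 without LL_TBI 1, beside 2.6% of all genes. Leaving out LL_TBI 1 and 2, the libraries with pancreatic transcripts, left 1 irradiated library. Its spread was taken from the controls, so calls from this fit are not counted.

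No constant region was called after LL irradiation. Igha had a log2 fold change of -0.50 (SE 0.24, limma adjusted p = 0.322), Igkc of -0.44 (SE 0.28, limma adjusted p = 0.417) and Jchain of -0.56 (SE 0.25, limma adjusted p = 0.29). For each of these 3 genes all LL_TBI libraries lay below all LL_Ctrl libraries in FPKM as listed. Pancreatic genes took 8.07% and 30.3% of FPKM in LL_TBI 1 and 2, which lowers the FPKM of other genes there. Whether the groups stay apart for these 3 genes after rescaling was not tested. Against all 6 controls their log2 fold changes turned positive, with 0.144 for Igha, 0.188 for Igkc and 0.449 for Jchain. Ighg1 had the largest negative value, -1.75 (SE 0.86), but the groups overlapped, with 1.93, 1.14 and 0.869 FPKM in LL_TBI, against 10.3, 9.28 and 0.858 FPKM in LL_Ctrl. With the pancreatic genes removed and the rest rescaled, the median was -0.35 over the members and 0.09 over all genes. The same number of members, 2, was called lower, beside 0.0776% of all genes.

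The untreated groups differed in many immunoglobulin genes. In HH_Ctrl against LL_Ctrl, 0 members were called higher and 82 lower by limma, beside 2.26% of all genes called higher and 12.1% called lower. At an unadjusted p under 0.05 the counts were 0 and 95, beside 2128 and 4697 of all 12921 genes. The median log2 fold change was -1.92 over the members and -0.14 over all genes tested. The groups did not overlap, with HH_Ctrl above, for 0 members (19.1% of all genes) and with HH_Ctrl below for 81 members (38.2% of all genes). The limit on the mean was met by 145 members in HH_Ctrl and 170 in LL_Ctrl, and of the 143 that met it in both groups 64 were called lower. With no filter on low values 42 members were called lower, beside 6.77% of 22063 genes.

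Jchain fell by 2.02 on the log2 scale in HH_Ctrl (SE 0.23, limma adjusted p = 0.000771), Igha by 1.28 (SE 0.18, limma adjusted p = 0.00152) and Igkc by 1.25 (SE 0.19, limma adjusted p = 0.0021). The other constant regions were not called. Over the constant regions and Jchain, 4 values were positive and 8 negative. The positive ones were those of Ighd (2.37, SE 1.62), Ighm (0.79, SE 1.201), Ighg2b and Ighg3, with wide errors for Ighd and Ighm. Among the variable segments 36 Ighv, 41 Igkv and 2 Iglv were called lower. Ighv5-9-1, whose values are given beside its sequence, fell by 5.77 (SE 0.32, limma adjusted p = 0.00012). Ighv1-15 had 0.795, 0.749 and 1.01 FPKM in HH_Ctrl, against 31.5, 25.5 and 13.9 FPKM in LL_Ctrl (log2 fold change -4.57, SE 0.30, limma adjusted p = 0.000166). Ighv5-9 fell by 4.601 (SE 0.91, limma adjusted p = 0.00635), Igkv6-25 by 4.45 (SE 0.78, limma adjusted p = 0.00397) and Ighv9-1 by 4.16 (SE 0.54, limma adjusted p = 0.00126). Abundant kappa segments followed, with Igkv1-110 at -3.14 (SE 0.48, limma adjusted p = 0.00226) and Igkv1-117 at -2.71 (SE 0.26, limma adjusted p = 0.00045). The median log2 fold change was -1.96 over the variable segments and -0.45 over the constant regions and Jchain.

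No member passed the call rule between the irradiated groups. In HH_TBI against LL_TBI limma called 0 members higher and 0 lower, beside 0% of all genes called higher and 0% called lower. At an unadjusted p under 0.05, 13 members were higher and 18 lower, beside 724 and 729 of all 12921 genes. The groups did not overlap, with HH_TBI above, for 9 members (8.51% of all genes) and with HH_TBI below for 12 members (8.69% of all genes). The median log2 fold change was 0.01 over the members. Igha differed by 0.10 (SE 0.32) and Igkc by 0.21 (SE 0.35), both within the spread between libraries.

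Among the constant regions the minor isotypes differed most between the irradiated groups. Ighg2b had 58.5, 58.2 and 25.1 FPKM in HH_TBI, against 9.09, 2.76 and 3.22 FPKM in LL_TBI (log2 fold change 3.32, SE 0.49, limma adjusted p = 0.19). Ighg3 had a log2 fold change of 2.80 (SE 0.56, limma adjusted p = 0.299) and Ighm one of 2.11 (SE 0.39, limma adjusted p = 0.257). The groups did not overlap for these 3 genes, nor for Ighg1 and Ighg2c. Igkv4-74 had 9.20, 48.6 and 8.03 FPKM in HH_TBI, against 0.584, 1.41 and 0.334 FPKM in LL_TBI (4.33, SE 0.71, limma adjusted p = 0.203), and Iglc1 ran the other way, with 38.4, 19.5 and 46.6 FPKM in HH_TBI, against 53.7, 82.1 and 72.6 FPKM in LL_TBI (-1.06, SE 0.34, limma adjusted p = 0.395). Other lymphoid markers are given beside Ighm and the IgG genes. The list of B cell genes summed to 41.6, 43.7 and 35.0 FPKM in HH_TBI, against 34.8, 25.5 and 31.2 FPKM in LL_TBI, with 11 of 13 tested genes positive and a median log2 fold change of 0.51. A list of genes of Peyer's patch stroma and M cells summed to 140.9, 137.6 and 138.5 FPKM in HH_TBI, against 67.3, 73.9 and 179.3 FPKM in LL_TBI, with 7 of 10 tested genes positive, a median of 0.73 and 3 higher at an unadjusted p under 0.05. The groups did not overlap for the first list and overlapped for the second, through LL_TBI 3. The part of lymphoid tissue in the isotype values was not tested.

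Without LL_TBI 3, a library with high Fabp6, 4 members were called higher and 4 lower, beside 1.25% and 1.2% of all genes. The LL_TBI libraries left are those with pancreatic transcripts (8.07% and 30.3% of FPKM). The members called higher were Igkv4-74, Ighg2b, Ighg3 and Ighm. They were also called, with Igkv3-1, when both libraries with high Fabp6 (HH_TBI 3 and LL_TBI 3) were left out, which again leaves LL_TBI 1 and 2.

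The difference between the responses was tested as an interaction over all 12 libraries and called at an adjusted p under 0.05 alone. The change in HH_TBI against HH_Ctrl exceeded that in LL_TBI against LL_Ctrl for 19 members and was smaller for 0 by limma. Of all genes, 6.73% had a larger HH response and 0.635% a smaller one. At an unadjusted p under 0.05 the counts were 61 and 1 members, beside 2559 and 581 of all 12921 genes. With no filter on low values 1 member had a larger HH response, beside 2.31% of 22063 genes. The 19 were Igha (difference 1.38, SE 0.32, limma adjusted p = 0.0275), Igkc (1.46, SE 0.36, limma adjusted p = 0.0347), Jchain (1.67, SE 0.35, limma adjusted p = 0.0212), 8 Ighv and 8 Igkv segments. For Igha, Igkc and Jchain the HH_TBI mean was above that of HH_Ctrl and the LL_TBI mean below that of LL_Ctrl. The largest differences were those of Igkv1-122 (5.07, SE 0.93), Igkv4-57-1 (4.58, SE 1.01) and Igkv4-74 (4.51, SE 0.93). Igkv1-122 averaged 0.037 FPKM in LL_TBI, far under the limit on the mean. The count depended on single libraries: it was 0 without LL_Ctrl 3, 2 without LL_Ctrl 2, 6 without HH_TBI 1 and at least 10 when any other single library was left out. The share of all genes with a larger HH response fell too, to 0.503% without LL_Ctrl 3, 0.828% without LL_Ctrl 2 and 1.79% without HH_TBI 1. Each of these differences also holds the difference between HH_Ctrl and LL_Ctrl, for which 82 members were called.

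**Figure D2:**
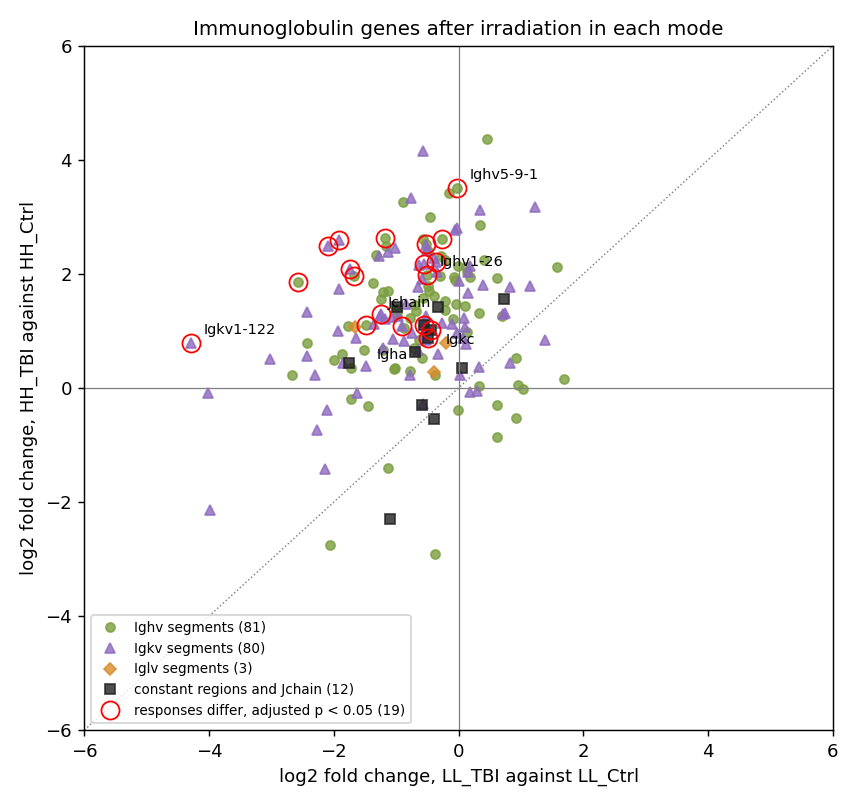
Log2 fold change of each of the 176 members in HH_TBI against HH_Ctrl (vertical axis) and in LL_TBI against LL_Ctrl (horizontal axis), on log2(FPKM + 0.1), with red rings on the 19 members whose responses differed. Most members lie above the diagonal, with a median of 1.24 for HH and -0.56 for LL.

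Ratios between chains also differed between the groups and are given as descriptions with no test. The summed Ighv FPKM came to 33.8%, 27.3% and 36.6% of the summed heavy constant region FPKM in HH_TBI, 20.1%, 15.2% and 18.5% in HH_Ctrl, 33.6%, 31.1% and 33.6% in LL_TBI and 37.8%, 31.3% and 34.5% in LL_Ctrl. The HH_Ctrl libraries were alone in being at or below 20.1%. The summed Igkv FPKM came to 53.1%, 39.6% and 53.2% of Igkc in HH_TBI, 33.9%, 29.0% and 34.8% in HH_Ctrl, 58.6%, 60.3% and 54.2% in LL_TBI and 61.1%, 66.9% and 59.2% in LL_Ctrl, again lowest in HH_Ctrl. FPKM is per length, so these are ratios of levels per kilobase. How rearranged and mutated segments were matched to germline models, and its part in these ratios, was not tested.

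Jchain relative to Igha split by experiment and not by irradiation. Jchain FPKM came to 12.6%, 12.99% and 14.2% of Igha FPKM in HH_TBI, 10.5%, 10.8% and 12.7% in HH_Ctrl, 17.0%, 17.5% and 19.7% in LL_TBI and 16.8%, 18.8% and 21.3% in LL_Ctrl. Every HH library was below every LL library, irradiated or not, whereas the TBI and Ctrl libraries overlapped within each mode. Why the 2 experiments differed in this ratio was not tested.

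**Figure D3:**
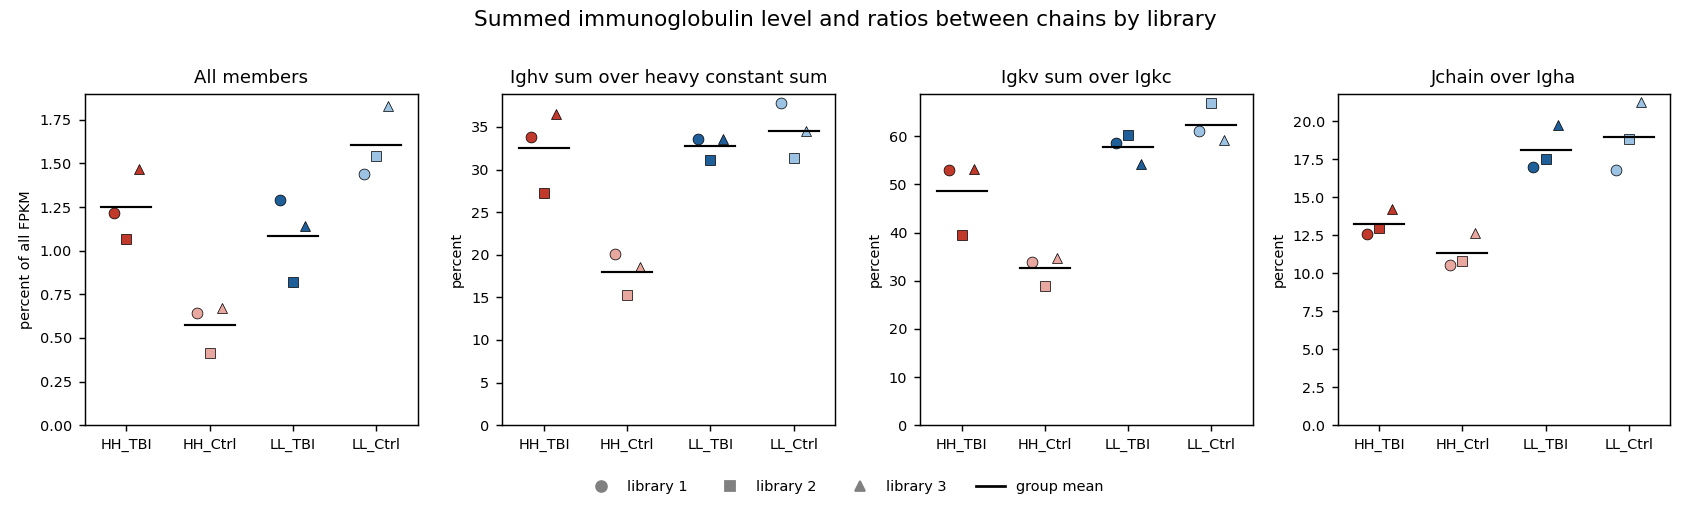
Share of all FPKM taken by the members, and 3 ratios between chains, in percent, by group, with 1 symbol per library and a line at the group mean. HH_Ctrl libraries were lowest in the share of all FPKM and in both variable to constant ratios, and for Jchain over Igha all HH libraries (10.5% to 14.2%) were below all LL libraries (16.8% to 21.3%).

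The spread of variable segments within a library was summarised as an effective number, the exponential of the Shannon entropy, which equals the number of segments when all are equally abundant. For Ighv it was 44.8, 36.4 and 29.4 in HH_TBI, 34.8, 39.5 and 42.8 in HH_Ctrl, 47.1, 41.9 and 36.0 in LL_TBI and 39.7, 41.8 and 37.8 in LL_Ctrl, out of 81 segments. For Igkv it was 33.2, 31.4 and 28.3 in HH_TBI, 31.1, 34.3 and 38.8 in HH_Ctrl, 35.9, 33.8 and 25.7 in LL_TBI and 35.3, 26.4 and 33.9 in LL_Ctrl, out of 80. The groups overlapped for both loci in each comparison. HH_TBI 3 was the most uneven library for Ighv, with 43.2% of summed Ighv FPKM in its 5 highest segments, and LL_TBI 3 for Igkv by effective number, with 49.7% in 5 segments. Both are the libraries with high Fabp6. HH_Ctrl 3, whose ileum list summed to nearly the same as in LL_TBI 3, had effective numbers of 42.8 for Ighv and 38.8 for Igkv. The part of gut segment in this was not tested.

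**Figure D4:**
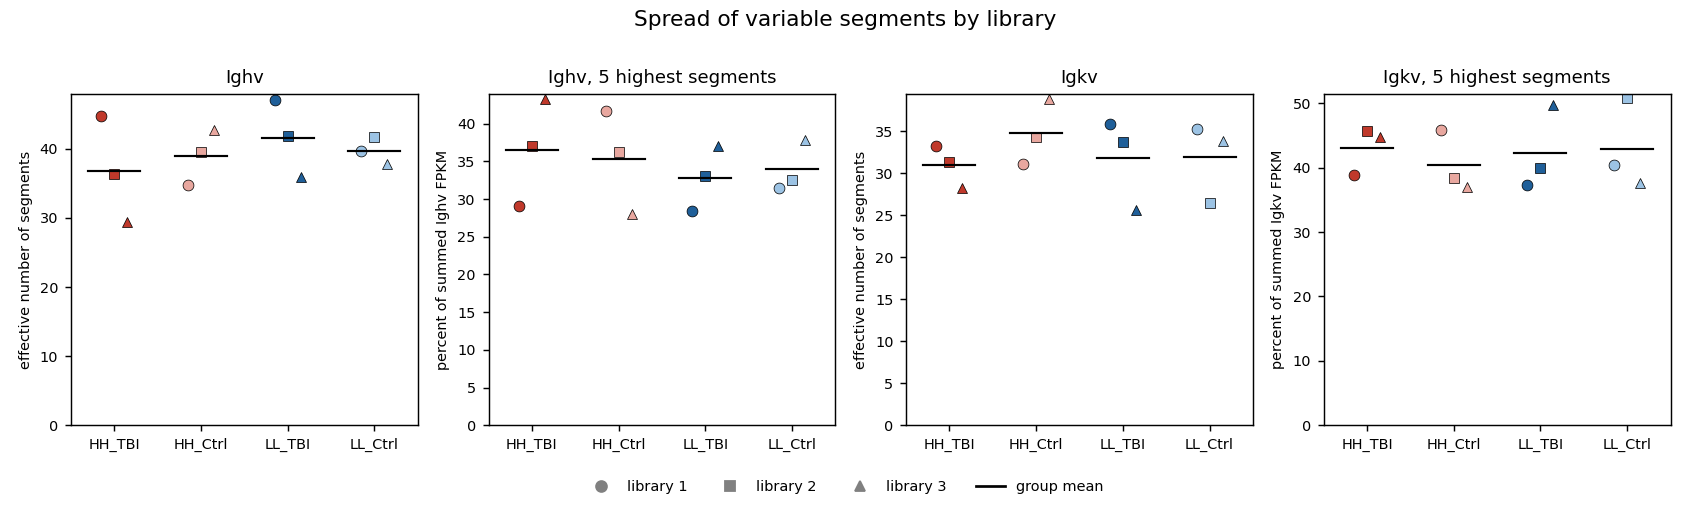
Effective number of variable segments and percent of summed FPKM in the 5 highest segments, for Ighv (left) and Igkv (right), by group, with 1 symbol per library and a line at the group mean. The groups overlap in all 4 panels, and HH_TBI library 3 has the lowest Ighv effective number, 29.4.

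The leading heavy chain segment changed from library to library. It was Ighv1-26, Ighv1-39 and Ighv5-17 in HH_TBI (8.90%, 11.2% and 11.6% of summed Ighv FPKM), Ighv1-55, Ighv1-19 and Ighv1-26 in HH_Ctrl (13.04%, 8.58% and 8.98%), Ighv3-6, Ighv1-26 and Ighv5-9-1 in LL_TBI (6.50%, 8.36% and 10.0%) and Ighv3-6, Ighv5-9-1 and Ighv1-55 in LL_Ctrl (8.88%, 9.61% and 13.8%). No segment led in all libraries of a group. The kappa locus was more alike: Igkv1-110 led in all LL_TBI libraries, in LL_Ctrl 1 and 2 and in HH_Ctrl 3, its close copy Igkv1-117 in LL_Ctrl 3, and Igkv10-96 in HH_TBI 1 and in HH_Ctrl 1 and 2. In HH_TBI 2 Igkv6-23 led, with 97.0 FPKM, and in HH_TBI 3 Igkv8-30, with 262.7 FPKM (17.8% of summed Igkv FPKM), against 43.5 and 17.3 FPKM in HH_TBI 1 and 2. By family, the 40 Ighv1 segments held 48.3% to 69.3% of summed Ighv FPKM, and the 8 Igkv1 segments 12.5% to 32.6% of summed Igkv FPKM.

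Libraries of 1 group shared little more of their segment composition than libraries of different groups. Taking for each segment the smaller of its shares in a pair of libraries and summing, the median pair within a group shared 62.9% of the Ighv composition (range 54.9% to 68.0%, 12 pairs) and the median pair between groups 59.4% (47.4% to 71.1%, 54 pairs). For Igkv the medians were 65.7% (58.5% to 73.2%) within groups and 64.4% (50.2% to 77.4%) between groups. The ranges overlapped almost wholly.

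Single segments varied more between libraries of a group than the median gene tested. The within-group SD of log2(FPKM + 0.1) had a median of 1.24 over the 164 variable segments and 0.77 over the constant regions and Jchain. It was 0.27 over all genes tested. Over 5272 other genes of 2.17 to 12.6 FPKM, the middle range of the segments' mean levels, it was 0.25. The 1.24 also covers segments outside that range, so these 2 sets are not matched in level. For the 106 variable segments with 1 transcript model, the median segment was covered by 40.8 fragments per library, for which counting alone gives a median SD of 0.22, against 1.202 observed. The spread between libraries includes counting error and any other difference between them, so it exceeds the counting SD wherever libraries differ at all. Some segments were high in a single library: in 43 of 164 the highest library was at least 2 times the next. Ighv2-4 had 8.49 FPKM in HH_TBI 1 and at most 0.366 FPKM elsewhere, Igkv12-38 had 13.8 FPKM in LL_TBI 3 and at most 1.97 FPKM elsewhere, and Ighv1-20 had 12.4 FPKM in LL_TBI 1 and at most 1.10 FPKM elsewhere; these segments were chosen after their values were seen. HH_Ctrl 1, 2 and 3 held the highest value of 1, 0 and 2 of the 164 segments, whereas LL_Ctrl 1, 2 and 3 held that of 25, 30 and 31.

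**Figure D5:**
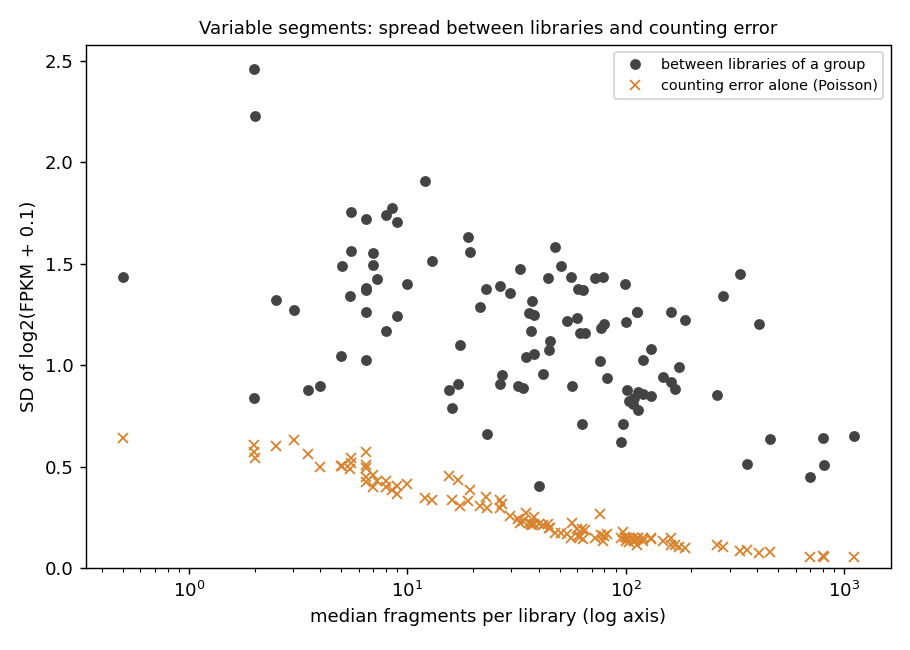
Within-group SD of log2(FPKM + 0.1) (filled circles) and the SD that counting error alone gives (crosses), against the median number of fragments per library on a log axis, for the 105 variable segments with 1 transcript model and a median above 0 fragments. The medians over 106 segments were 1.202 between libraries and 0.22 for counting error, which falls as fragments increase.

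Genes around antibody production were set beside the members. Of 17 plasma cell genes tested, 1 was called higher and 0 lower in HH_TBI against HH_Ctrl, beside 10.3% and 2.38% of all genes. The 1 called was Ell2, an elongation factor that favours the secreted form of the heavy chain. It had 21.2 ± 2.80 FPKM over 3 HH_TBI libraries, against 10.6 ± 2.12 FPKM over 3 HH_Ctrl libraries (mean ± SD, log2 fold change 1.01, SE 0.17, limma adjusted p = 0.00542). In HH_Ctrl against LL_Ctrl 3 of the 17 were called lower, a share near the 12.1% of all genes called lower: Tnfrsf17, the survival receptor BCMA (log2 fold change -1.64, SE 0.42, limma adjusted p = 0.0177), Ccr10, a homing receptor of IgA plasma cells (-1.02, SE 0.23, limma adjusted p = 0.0119), and Slamf7 (-1.59, SE 0.50, limma adjusted p = 0.0384). In LL_TBI against LL_Ctrl and in HH_TBI against LL_TBI 0 of 17 were called in either direction by limma, and at an unadjusted p under 0.05 the counts were 2 higher and 3 lower in the first and 0 higher and 1 lower in the second. Mzb1, a chaperone of IgM and IgA assembly, had 11.6, 8.64 and 9.66 FPKM in HH_TBI, 8.07, 3.57 and 11.2 FPKM in HH_Ctrl, 10.97, 7.11 and 9.80 FPKM in LL_TBI and 7.62, 9.82 and 10.3 FPKM in LL_Ctrl, so it did not separate the groups. Sdc1, the surface proteoglycan CD138, is also made by epithelium and had 24.98 to 55.8 FPKM in all libraries.

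Receptors and niche factors were compared in the same way. Pigr had 532.6, 602.1 and 492.1 FPKM in HH_TBI and 538.6, 476.4 and 460.2 FPKM in HH_Ctrl, whereas it had 1069, 530.4 and 372.6 FPKM in LL_TBI and 1327, 1536 and 1360 FPKM in LL_Ctrl, so that HH_Ctrl was lower than LL_Ctrl (log2 fold change -1.52, SE 0.11, limma adjusted p = 0.000193). Of 9 genes of IgA transport and Fc receptors tested, 5 were called higher and 0 lower in HH_TBI against HH_Ctrl, beside 10.3% and 2.38% of all genes. They were the IgG receptors Fcgr1, Fcgr2b, Fcgr3 and Fcgr4, and Fcer1g, the signalling chain of activating Fc receptors, with log2 fold changes of 1.25 to 2.74. In HH_Ctrl against LL_Ctrl 5 of the 9 were called lower and 0 higher, beside 12.1% and 2.26% of all genes. These were Pigr, Fcgr1 (-2.02), Fcgr3 (-2.09), Fcgr4 (-2.43) and Fcer1g (-1.07). Between HH_TBI and LL_TBI limma called 0 of the 9 (unadjusted p under 0.05 in 0), and their median was -0.01. Of 19 genes for plasma cell survival and homing, 5 were called higher and 1 lower in HH_TBI against HH_Ctrl, beside 10.3% and 2.38% of all genes. Among the 5 were Cxcl12, which holds plasma cells in their niche (2.50, SE 0.28, limma adjusted p = 0.00154), and Cxcl13, which attracts B cells (3.11, SE 0.63, limma adjusted p = 0.00952). The 1 called lower was Ccl28, an epithelial chemokine for IgA plasma cells (-1.13, SE 0.19, limma adjusted p = 0.00534). In HH_Ctrl against LL_Ctrl 4 of the 19 were called lower, Ccr9, Aldh1a1, Aldh1a2 and Cxcl12, and 0 higher, beside 12.1% and 2.26% of all genes. After LL irradiation limma called 0 of the 9 (at an unadjusted p under 0.05, 1 higher and 2 lower) and 0 of the 19 (2 higher and 5 lower).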

How the data were processed

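RNA of mouse intestine was sequenced in 12 libraries. The authors quantified genes with StringTie and deposited the values as FPKM in 1 table of 22063 genes, with no read counts. The submitters' processing notes name Bowtie 0.12.2. The labels describe rRNA-depleted, stranded libraries and the study's methods poly(A) enrichment, and the genome build of the table is not clear from the sources, so no coordinates are given; chromosomes, transcript lengths and sequences come from GENCODE M21 (GRCm38), in which all 176 member IDs were found. Whether counting used strand is not given in the sources used here, so overlapping and antisense genes are uncertain.

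The members and all gene lists were chosen with earlier results of these data known. Comparisons were fitted with limma 3.58.1 (R 4.3.3) on log2(FPKM + 0.1), over the libraries of the groups compared and the 12921 genes averaging 0.5 FPKM or more, with an intensity trend and Benjamini-Hochberg adjustment over all genes. On this scale changes of low genes are understated. The script was tested on simulated data. Calls needed an adjusted p under 0.05 and, except for the interaction, an absolute log2 fold change above 1. Compositions were computed in Python 3.11.15 with pandas 2.3.3, and segments were aligned with Biopython 1.88. Named genes were the constant regions, the 5 most abundant segments of each locus, the highest Ighv and Igkv segment of each library, up to 5 calls in each direction with the largest fold, up to 4 genes per list with the smallest p, and defining markers, of which 1 is not reported here; any other named gene was chosen after its values were seen. Alternatives covered the pseudocount, filter, scaling, pancreatic genes, controls, replicate block and each library left out; leaving out groups of libraries that stood apart was chosen after seeing the data. Depth was estimated from the steps of low FPKM values, and counting SDs cover counting error only.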

Additional observations from a re-analysis of the deposited data

Results flagged for a closer look

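The responses to HH and LL irradiation differed by the interaction test of limma (adjusted p under 0.05 over all genes) for 19 members, in each case with the larger value for HH. Of all genes, 6.73% had a larger HH response and 0.635% a smaller one. The count of members was 0 without LL_Ctrl 3 and 2 without LL_Ctrl 2, beside 0.503% and 0.828% of all genes. The difference of log2 fold changes, HH_TBI against HH_Ctrl minus LL_TBI against LL_Ctrl, was 1.38 for Igha, 1.46 for Igkc and 1.67 for Jchain. Among kappa segments it was 5.07 for Igkv1-122, 4.58 for Igkv4-57-1, 4.51 for Igkv4-74, 3.83 for Igkv6-15, 2.73 for Igkv3-12, 2.57 for Igkv1-110, 2.55 for Igkv1-117 and 1.996 for Igkv10-96. Among heavy chain segments it was 4.43 for Ighv9-1, 3.81 for Ighv1-15, 3.65 for Ighv1-50, 3.54 for Ighv5-9-1, 3.04 for Ighv1-69, 2.88 for Ighv1-9, 2.59 for Ighv3-5 and 2.49 for Ighv1-26. Igkv1-122 averaged only 0.037 FPKM in LL_TBI. With no filter on low values 1 member passed the threshold, beside 2.31% of all genes with a larger HH response. Irradiation mode cannot be told apart from the experiment, since each mode had its own controls.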

How the results depend on the processing

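With no filter on low values, limma called 8 members higher and 0 lower in HH_TBI against HH_Ctrl, beside 5.05% and 1.02% of 22063 genes. The same setting gave 0 lower in LL_TBI against LL_Ctrl, beside 0%, and 42 lower in HH_Ctrl against LL_Ctrl, beside 6.77%. It gave 1 larger HH response, beside 2.31%. A pseudocount of 1 gave 0 members lower in HH_TBI against HH_Ctrl, beside 1.45% of all genes. A filter over the libraries of the comparison gave 1, beside 2.38%. Median-ratio scaling gave 0 lower in LL_TBI against LL_Ctrl, beside 0.031%. All 6 controls gave 1 higher in HH_TBI, beside 4.14% of all genes. They turned the sign for Igha (0.144), Igkc (0.188) and Jchain (0.449) in LL_TBI and for Ighv3-6 (-0.045) and Igkv1-117 (-0.054) in HH_TBI. All 12 libraries in one fit gave 1 member higher and 1 lower in HH_TBI against LL_TBI, beside 0.48% and 0.41% of all genes. Without LL_TBI 1 and 2, 4 members were called higher and 30 lower in LL_TBI against LL_Ctrl. That fit leaves 1 LL_TBI library, with its spread taken from the controls, so these calls are not counted as results. Without HH_Ctrl 1 and 3, 0 members were lower in HH_TBI against HH_Ctrl and 11 had a larger HH response. That fit leaves 1 HH_Ctrl library assumed to vary like the other groups, so its calls are not counted either. Without the third library of HH_TBI and of LL_TBI, 5 members were higher and 5 lower in HH_TBI against LL_TBI. The shares of all genes were 0.735% and 0.813%.

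Leaving out each library in turn gave 25 to 46 members higher and 0 to 3 lower in HH_TBI against HH_Ctrl. The shares of all genes were 7.62% to 11.4% and 1.84% to 2.77%. In LL_TBI against LL_Ctrl 0 were higher and 0 to 11 lower, beside 0% to 2.31% and 0.00774% to 2.6%. In HH_Ctrl against LL_Ctrl 0 to 4 were higher and 63 to 82 lower, beside 1.95% to 2.8% and 11.1% to 12.6%. In HH_TBI against LL_TBI 0 to 4 passed in each direction, beside 0% to 1.25% higher and 0% to 1.2% lower. A larger HH response was called for 0 to 28, beside 0.503% to 14.3%. By the inverse Simpson index the effective number of Ighv segments averaged 24.9 in HH_TBI, 25.7 in HH_Ctrl, 29.2 in LL_TBI and 26.1 in LL_Ctrl, and that of Igkv segments 18.9, 21.7, 20.1 and 19.2 in the same groups; this index weights abundant segments more by construction.

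Whether replicate numbers pair the samples was not settled, since the check rests on 3 libraries per group. Correlations of same-numbered deviations reached 0.1 in only some pairs, and were 0.044, 0.171 and 0.242 in HH_TBI against HH_Ctrl. In no comparison did every sample correlate best with its own number. With the replicate block, 59 members were higher in HH_TBI against HH_Ctrl, beside 10.5% of all genes, and 8 lower in LL_TBI against LL_Ctrl, beside 0.201%. In HH_Ctrl against LL_Ctrl 90 were lower, beside 12.1%, and in HH_TBI against LL_TBI 1 was higher, beside 0.00774%. A larger HH response was called for 26, beside 5.93% of all genes. Scaling moved the median of all genes in LL_TBI against LL_Ctrl between -0.20 (same sum) and 0.09 (pancreatic genes removed), beside -0.12 as reported. Igkv1-122 and Igkv9-123 had at most 30.99 and 22.01 fragments in a library, so their lowest values are limited by depth. Of the values for single genes under all alternatives, 580 kept direction and side of the threshold, 147 fell short of it, 1 passed it and 5 turned sign. The cause of these changes was not tested.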

Other observations

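Folding genes of the endoplasmic reticulum serve secretory cells of any kind. Of 22 tested, 4 were called lower in HH_Ctrl against LL_Ctrl and 0 higher, beside 12.1% of all genes called lower. Hspa5, the chaperone BiP, averaged 64.2 ± 10.8 FPKM in HH_Ctrl and 201.8 ± 26.8 FPKM in LL_Ctrl (SD, n = 3 each, log2 fold change -1.66, limma adjusted p = 0.000387), and its co-chaperone Dnajb9 averaged 8.91 ± 0.343 FPKM in HH_Ctrl and 30.2 ± 2.63 FPKM in LL_Ctrl (-1.75, limma adjusted p = 0.000103). Hsp90b1 (-1.10) and Dnajc3 (-1.08) were the others. After irradiation 0 of 22 were called by limma in HH_TBI against HH_Ctrl, with 8 higher and 6 lower at an unadjusted p under 0.05, and 0 of 22 in LL_TBI against LL_Ctrl, with 1 higher and 1 lower. In HH_TBI against LL_TBI limma called 0 of 22. At an unadjusted p under 0.05, 0 were higher and 9 lower, beside 724 and 729 of all 12921 genes. The pancreatic acinar list had a median log2 fold change of -7.78 in that comparison, with 8.07% and 30.3% of FPKM in LL_TBI 1 and 2. The part of pancreatic tissue in the values of the folding genes was not tested. The responses differed for 3 of 22, with larger HH values for Atf6 (0.89) and Dnajb9 (0.98) and a smaller one for Ssr4 (-0.88). Of all genes, 6.73% had a larger and 0.635% a smaller HH response.

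T cell genes had lower values after irradiation. Of 16 tested, 4 were called lower in HH_TBI against HH_Ctrl and 0 higher, beside 2.38% and 10.3% of all genes. They were the T cell receptor constant regions Trbc1 (log2 fold change -1.10) and Trbc2 (-1.13), and the signalling chains Cd3d (-1.19) and Cd247 (-1.14). In LL_TBI against LL_Ctrl limma called 0 of 16, with 14 lower and 0 higher at an unadjusted p under 0.05. Of 9 germinal center genes, Bcl6 was called higher in HH_Ctrl against LL_Ctrl (1.32, limma adjusted p = 0.0104) and Fas lower (-1.16, limma adjusted p = 0.000931), beside 2.26% and 12.1% of all genes. Of 13 B cell genes tested, limma called 0 in each comparison; at an unadjusted p under 0.05, 1 was higher and 1 lower in HH_TBI against HH_Ctrl, 0 were higher and 2 lower in LL_TBI against LL_Ctrl, 2 were higher and 0 lower in HH_TBI against LL_TBI, and 0 passed in HH_Ctrl against LL_Ctrl.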
